A study of Mus musculus with 4 samples.

Results

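The Sox, Fox, Gata and basic helix-loop-helix (bHLH) genes encode transcription factors that set cell fate in the embryo. Methylation was read at the promoters of 58 of them, chosen by name from the mouse annotation: 17 Sox, 19 Fox, 4 Gata and 18 bHLH genes (Neurog1 to Neurog3, Neurod1, Neurod2, Ascl2, Atoh1, Olig1 to Olig3, Bhlhe22, Twist1, Twist2, Hand1, Hand2, Tcf21, Tal1 and Lyl1). Earlier results of these data were known when the genes were chosen. The annotation holds 55413 genes, of which 20135 had a promoter with usable CpG sites, and 50 of the 58 factors were among them. Sox1, Sox5, Foxh1, Foxn1, Foxq1, Gata1, Olig3 and Bhlhe22 had none.

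DNA came from 4 subcutaneous leg tumors in female 129Sv/Ev mice aged 12 to 16 weeks, 2 grown from the lung adenocarcinoma line 344SQP (parental) and 2 from 344SQR, a derivative resistant to anti-PD1. Every mouse received anti-PD1 at 10 mg/kg from day 4 for 4 doses, and tumors were taken 24 h after the last dose, so neither line was compared with an untreated group. Reduced representation bisulfite sequencing (RRBS) reads CpG-rich fragments and scores every CpG cytosine in a read as methylated or unmethylated. The tables held 116794455 and 138331886 CpG calls in parental tumors 1 and 2, and 160548303 and 174689402 in resistant tumors 1 and 2. The comparison asks whether the promoters of these factors carried different methylation in the resistant line.

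Promoters of such factors are rich in CpG. In normal cells many of them are kept unmethylated and silenced by Polycomb proteins, and in tumors and cell lines this class often gains DNA methylation. A promoter here spanned the 1000 bp before and the 500 bp after each transcription start site (TSS) used, with the windows of a gene joined. Some genes, such as Sox5, Gata4 and Gata1, start upstream of the 5′-most TSS used. The level of a promoter was the mean percent methylation of the CpG sites covered by at least 20 reads in all 4 tumors. The 50 promoters held 2373 such sites, from 1 to 128 per gene, and 33 of the 50 met a CpG-rich rule (GC content of at least 0.55 and observed over expected CpG of at least 0.6 in a window). Levels ran from 1.69% (Sox4) to 82.5% (Foxi1) as means of the 4 tumors. Of the 50 genes, 23 (46%) lay over 25% and 8 lay under 5%, and over all promoters 30.1% lay over 25%. Among CpG-rich promoters of any gene, 663 of 7562 (8.77%) lay over 25%, against 10 of the 33 CpG-rich factors.

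Tumors of 1 line differed more than the lines did. The mean over the 50 promoters was 20.2% and 31.0% in parental tumors 1 and 2, and 22.2% and 30.6% in resistant tumors 1 and 2. The line means were 25.6% ± 7.61 (SD, n = 2) and 26.4% ± 5.95 (SD, n = 2), a difference of 0.792 points that was smaller than either SD and was 0.159 points with a coverage minimum of 10 reads. By a two-sided exact permutation test p was 1, and 2 tumors against 2 cannot reach an exact p below 0.33. Parental tumor 2 exceeded parental tumor 1 at 45 of the 50 promoters, by a median of 7.05 points, and resistant tumor 2 exceeded resistant tumor 1 at 43, by a median of 6.34 points. Both held at 40 promoters (80%), against 36.1% of all promoters and 94% of the 663 CpG-rich promoters over 25%. Coverage of the sex chromosomes moved with this split. Calls on chromosome Y per 1000000 autosomal calls were 412.9 and 256.9 in parental tumors and 563.4 and 180.4 in resistant tumors, and calls on chromosome X were 16208.5 and 12972.5, then 15378.2 and 11917.8. Their part in the methylation values was not tested. In bulk tumors a change of methylation per cell and a change in the mix of cells cannot be told apart.

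**Figure D1:**
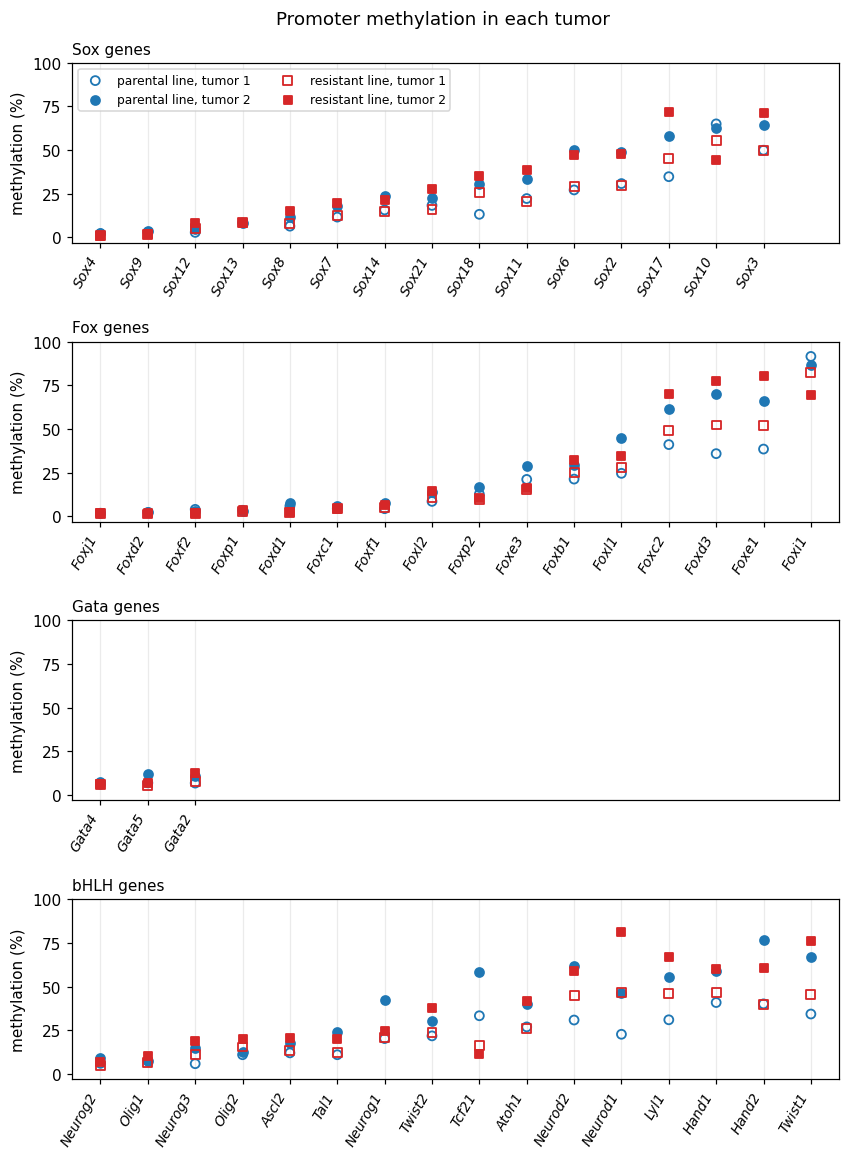
Promoter methylation (%) of the 50 factors in each tumor, by family and in order of the mean over the tumors. Each point is 1 tumor, circles are parental and squares resistant, open for tumor 1 and filled for tumor 2. At genes over 25% the filled symbols lie above the open ones in both lines, with Sox10, Foxi1 and Tcf21 as exceptions.

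The Sox mean was 20.8%, 29.6%, 21.6% and 30.6% in parental tumors 1 and 2 and resistant tumors 1 and 2, a difference of 0.951 points. The Fox mean was 20.1%, 28.1%, 21.5% and 26.7%, a difference of 0.00790 points. The 3 Gata promoters were low, at 6.69%, 10.2%, 6.48% and 8.55%, a difference of −0.939 points. The bHLH mean was the highest in each tumor, at 22.3%, 39.0%, 26.3% and 38.5%, a difference of 1.75 points. Two-sided exact permutation p was 0.667 for Sox and Gata and 1 for Fox and bHLH, and in each family the difference was smaller than the SD of either line. With a coverage minimum of 10 reads the bHLH difference was 0.241 points and the Fox difference −0.375 points, and with the 5′-most TSS alone the Gata difference was −0.396 points. The sign in each family changed with the tumor left out. The differences then ran from −3.55 to 5.46 for Sox, −4.01 to 4.02 for Fox, −2.70 to 0.825 for Gata and −6.61 to 10.1 for bHLH.

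The per-gene test followed the steps of the study's methods, without its methylKit software. The joined windows, the signed score and the lowest p of a site were set here. The test took every read as independent, without the spread between tumors. It combined a likelihood ratio test per CpG site over the sites of a promoter by Stouffer's z score, adjusted over all 20135 promoters (FDR under 0.05). By it 20 of the 50 factors were called lower in resistant tumors, where 29.7% of all promoters were, and 20 were called higher, where 8.79% of all promoters were. The call takes the sign of the combined score, and at Sox7 it was lower although the mean was 1.34 points higher. The median difference was 0.190 points over the 50 promoters and −0.233 over all promoters. Counted per single TSS window, with windows of a gene that held the same sites counted once (as 3 of Sox17 did), 24 of 59 windows of the 50 genes were called lower (29.4% of all such windows) and 21 higher (8.98%). The calls moved with single tumors: without parental tumor 1 there were 31 lower and 4 higher (28.9% and 7.44% of all promoters), without parental tumor 2 there were 9 and 29 (21.9% and 12.8%), without resistant tumor 1 there were 15 and 25 (30.6% and 11.6%), and without resistant tumor 2 there were 35 and 1 (28.7% and 3.9%). With the spread between tumors in the model, edgeR (quasi-likelihood) called 0 of the 50, against 0.0745% of all promoters. Its adjusted p ran from 0.152 (Foxd1) to 0.998. Unadjusted edgeR p was under 0.05 at 9 of the 50 (8.79% of all promoters), and limma called 0, with 7 under 0.05 unadjusted (10.2% of all promoters). The tumors of the lines did not overlap at 12 factors lower in the resistant line (32.5% of all promoters) and at 3 higher (7.58%).

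The cuts at 25% and 5% use the mean of the 4 tumors, so a difference between lines can itself decide membership. Tcf21 and Neurog1 were over 25% in the parental mean only, and Sox18 in the resistant mean only. No direction is concluded from the counts by level. Of the 23 factors over 25%, 14 were called higher and 7 lower, where 17.1% and 49.6% of all 6051 promoters over 25% were. edgeR and limma called 0 of the 23, with 2 under 0.05 unadjusted by each (12.1% and 18.8% of all promoters over 25%). The lines did not overlap at 1 of the 23 that was higher and at 3 that were lower, against 318 and 2248 of the 6051. The 10 of them with a CpG-rich promoter had 8 called higher and 2 lower, where 57.6% and 26.4% of the 663 CpG-rich promoters over 25% were. The other 13 had 6 called higher and 5 lower, where 12.1% and 52.5% of such promoters over 25% were. Of the 8 factors under 5%, 6 were called lower and 0 higher by the likelihood ratio test, where 12.3% and 2.26% of all 10979 promoters under 5% were. Among the 8, Foxd1 and Foxc1 were under 5% in the resistant mean only. Sox12, called higher, was under 5% in the parental mean only and was left out by the cut. edgeR had 5 of the 8 under 0.05 unadjusted (4.85% of all promoters under 5%) and called 0, and limma had 4 (4.31%) and called 0. Across single sites of the 50 promoters, 393 of 2373 were called lower and 398 higher, where 18.4% and 6.04% of all sites were.

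Sox10, a factor of neural crest and glia, had the largest difference among the called promoters with at least 5 sites and no overlap between lines. Its 16 sites (ENSMUSG00000033006, minus strand, chr15:79163990-79166240, GRCm38) had 65.0% and 62.7% methylation in the parental tumors and 55.6% and 44.6% in resistant tumors. The means were 63.9% ± 1.64 (SD, n = 2) and 50.1% ± 7.82 (SD, n = 2), a difference of −13.8 points with an FDR of 1.42e-38 and an edgeR adjusted p of 0.553. Both of its TSS windows were called lower. The upstream window went from 77.8% and 72.7% to 68.0% and 53.0%, and the intronic one from 37.1% and 40.7% to 28.3% and 25.9%. In the gene body, parts went both ways: 16 coding sites had 39.3% and 42.8% against 50.3% and 57.8%, 16 intron sites 39.4% and 34.8% against 26.0% and 22.4%, and the whole body 36.2% and 36.0% against 34.8% and 36.9% (called lower, edgeR adjusted p 0.712). The single site with the largest difference, upstream of the TSS, had 84.1% methylation (95% Wilson interval 78.6 to 88.4, 214 reads) and 78.7% (73.0 to 83.5, 230 reads) in parental tumors, and 57.9% (51.2 to 64.3, 216 reads) and 29.1% (23.8 to 35.1, 244 reads) in resistant tumors. Such intervals cover counting error only.

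Foxi1, known from ionocytes and the inner ear, had the most methylated promoter of the 50. Its 7 sites (chr11:34207589-34209089) had 91.5% and 86.7% in parental tumors and 82.6% and 69.3% in resistant tumors, and its mean differed by −13.2 points (FDR 1.74e-21, edgeR adjusted p 0.578). All 7 lay in the 5′ UTR or the coding start. Foxe3, a lens factor, had 21.1% and 28.7% against 15.2% and 16.4% over 68 sites (chr4:114925513-114927013), a difference of −9.08 points (FDR 1.52e-115, edgeR adjusted p 0.399), and 35 of its sites were called lower and 2 higher. These 3 promoters were lower with any 1 tumor left out. That sign was fixed in advance, as no overlap between lines was a condition of their choice. The size moved. Without resistant tumor 2 the difference was −8.26 points at Sox10 and −6.52 at Foxi1, without resistant tumor 1 it was −19.9 at Foxi1, and without parental tumor 2 it was −5.30 at Foxe3. Olig2, which specifies motor neurons and oligodendrocytes, was the 1 factor of this kind that was higher, at 11% and 12.8% against 15.4% and 19.8% over 6 sites (chr16:91224457-91225957). Its difference of 5.71 points (FDR 6.51e-05, edgeR adjusted p 0.731) was 3.55 without resistant tumor 2, with an FDR of 0.491.

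Foxe1, Twist1, Sox3 and Hand2, each among the 2 highest of its family, overlapped between the lines. Foxe1, a thyroid factor, had 38.5% and 66.2% in parental tumors and 52.2% and 80.1% in resistant tumors over 26 sites in its 5′ UTR. Its difference of 13.8 points was called higher (edgeR adjusted p 0.802) and was −0.0313 without parental tumor 1 and −0.130 without resistant tumor 2. Twist1, a mesoderm factor, had 34.3% and 67.1% against 45.8% and 75.9% over 86 sites. Its difference of 10.1 points (edgeR adjusted p 0.890) was −6.28 without parental tumor 1 and −4.96 without resistant tumor 2. At both genes the sign changed with the tumor left out. Sox3, an X-linked factor of neural progenitors, had 50.0% and 64.6% against 50.0% and 71.2%, a difference of 3.28 points that was −4.05 and −7.30 without the same tumors. Hand2, a factor of heart and limb, had 40.1% and 76.8% against 39.9% and 60.7% over 9 sites, a difference of −8.15 points that was 10.2 without parental tumor 2 and 2.26 without resistant tumor 1.

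The Gata promoters stayed low. Gata5, of endoderm and heart, had 7.03% and 12.2% against 5.26% and 6.99% over 52 sites, a difference of −3.47 points called lower without overlap (edgeR adjusted p 0.661) that was −0.903 to −6.05 with a tumor left out. Gata2, of blood stem cells, had 6.89% and 11% against 7.91% and 12.4% over 99 sites, which overlapped. Its difference of 1.21 points was −0.856 without parental tumor 1 and −1.04 without resistant tumor 2. Its windows differed in sign: the window of the 5′-most TSS was called higher (8.07% and 12.1% against 9.92% and 16.1%), and the downstream window was called lower (5.30% and 9.60% against 5.18% and 7.36%). Windows of single genes also differed in level. At Gata4 the window of the downstream TSS had 71.5% to 77.1% over 3 sites and that of the 5′-most TSS used 2.09% to 3.51% over 51. At Sox13 they had 93.4% to 96.9% over 4 sites and 0.835% to 0.935% over 46.

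The low promoters had small differences. Foxd1, of kidney stroma, had 5.89% and 7.39% against 2.0% and 2.23% over 39 sites, a difference of −4.53 points, and the lowest edgeR p of the 50 (0.000474, adjusted 0.152). Sox9, of cartilage, had 3.06% and 3.57% against 1.76% and 1.80%. Sox12, with a mean of 5.29%, was higher without overlap, at 2.90% and 4.67% against 5.31% and 8.26%. The widest gaps came from few sites. Tcf21, a mesenchymal factor, had 33.3% and 58.5% against 16.0% and 11.2% at 1 site, and Neurod1, a neuronal and islet factor, had 22.7% and 46.6% against 46.8% and 81.5% at 2 sites.

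Sequence around the site with the largest difference clear of annotated UTRs is shown for 6 of the factors, to place the measured CpGs in their context. Each is 120 bases of GRCm38, 5′ to 3′ on the strand of the gene, with capitals at the CpGs that were measured. Sox10 (chr15:79166097-79166216) and Sox3 (chrX:60894021-60894140) are upstream of the TSS, Foxi1 (chr11:34207900-34208019), Foxe3 (chr4:114925861-114925980) and Gata5 (chr2:180334142-180334261) are coding, and Gata2 (chr6:88194325-88194444) is intronic. Foxj1, the ciliogenesis factor, is the promoter with the lowest mean after Sox4 and is given for contrast (chr11:116335875-116335994, upstream of the TSS).
Sox10: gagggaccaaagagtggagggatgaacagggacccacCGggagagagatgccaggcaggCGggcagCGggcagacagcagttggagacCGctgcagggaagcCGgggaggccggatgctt
Foxi1: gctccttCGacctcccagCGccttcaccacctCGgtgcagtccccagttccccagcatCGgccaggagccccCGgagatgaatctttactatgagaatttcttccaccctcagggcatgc
Foxe3: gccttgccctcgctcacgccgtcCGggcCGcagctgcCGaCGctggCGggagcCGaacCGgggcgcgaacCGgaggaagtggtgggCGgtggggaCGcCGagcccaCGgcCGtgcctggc
Sox3: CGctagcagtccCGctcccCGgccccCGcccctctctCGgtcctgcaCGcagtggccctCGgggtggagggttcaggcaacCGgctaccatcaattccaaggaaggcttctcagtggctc
Gata2: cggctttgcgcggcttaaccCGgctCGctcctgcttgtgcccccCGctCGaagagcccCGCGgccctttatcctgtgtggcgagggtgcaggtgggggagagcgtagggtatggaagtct
Gata5: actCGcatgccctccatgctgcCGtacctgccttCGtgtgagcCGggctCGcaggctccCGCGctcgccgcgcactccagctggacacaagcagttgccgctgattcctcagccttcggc
Foxj1: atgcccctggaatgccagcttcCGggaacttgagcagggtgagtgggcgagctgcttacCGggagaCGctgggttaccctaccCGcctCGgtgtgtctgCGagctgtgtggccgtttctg
Over the window, Sox10 had 73.2% and 67.0% methylation in the parental tumors and 58.6% and 39.8% in resistant tumors. The Foxj1 window had 1.77% and 3.30%, then 1.48% and 1.48%. The Gata2 site had a difference of −29.7 points, though the Gata2 promoter was called higher. That site had 21.3% (47 reads) and 65% (20 reads) against 10.5% (38 reads) and 16.3% (43 reads).

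Gene bodies were sites between gene start and end outside every promoter window, which the choice of factors by name did not use, though earlier results were known. Of the 58 factors 55 had such sites, and 20 were called lower (60.8% of all gene bodies) and 22 higher (6.6%) by the likelihood ratio test. The median difference was 0.686 points, against −3.74 over all gene bodies, and 3 factors were higher without overlap (4.61%) and 8 lower (51%). The levels were unlike, with means of 32.5% and 44.7% against 34.4% and 44.3% for the factors. Over all gene bodies they were 68.0% and 68.2% against 64.3% and 60.02%. Tumor 2 exceeded tumor 1 in both lines at 44 of the 55 (80%, against 21.3% of all gene bodies). edgeR called 1 of the 55, Foxf2, which was also the 1 gene body it called among all 17665 tested (0.00566%), with 4 factors under 0.05 unadjusted (19.4% of all gene bodies). limma called 0, with 3 under 0.05 unadjusted (16.6%).

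Foxf2, a factor of gut and lung mesenchyme, was singled out after its values were seen. Its 38 sites lie within 640 bp of its intron (chr13:31629173-31629812, plus strand) and had 21.7% and 36.4% methylation in the parental tumors and 1.53% and 4.08% in resistant tumors. The means were 29.0% ± 10.4 (SD, n = 2) and 2.80% ± 1.81 (SD, n = 2), a log2 odds ratio of −4.05 with an edgeR adjusted p of 0.00954 and a limma adjusted p of 0.251. All 38 sites were lower in the mean of the resistant tumors, and 35 were called. Coverage ran from 20 to 221 reads. The call was lost without resistant tumor 1 (edgeR adjusted p 0.0861) or resistant tumor 2 (edgeR adjusted p 0.722), and held without parental tumor 1 (edgeR adjusted p 1.73e-13) or parental tumor 2 (edgeR adjusted p 2.84e-08), fits in which edgeR called 34 and 27 of all gene bodies. The log2 odds ratio was −3.60 without resistant tumor 1 and −4.51 without resistant tumor 2, where Foxf2 ranked 4 and 1 by p among all gene bodies and edgeR called 0 of them. In each of these fits the lone tumor was assumed to vary like the other line. The promoter mean was low, at 3.97% and 3.31% against 1.71% and 1.76% (edgeR adjusted p 0.287). The 55 coding sites past the promoter window, counted with other genes' promoters, had 3.0% and 2.77% against 2.28% and 1.52%. The 4 sites upstream of the promoter window went the other way, at 45.1% and 58.5% against 55.1% and 86.4% (edgeR adjusted p 0.457). The intron sequence with the largest difference is shown for this reason (chr13:31629622-31629741).
Foxf2: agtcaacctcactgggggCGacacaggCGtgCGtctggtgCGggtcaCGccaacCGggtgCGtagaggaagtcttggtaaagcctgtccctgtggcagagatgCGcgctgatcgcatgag
Over this window, methylation was 25.1% and 39.9% in parental tumors and 0.902% and 2.65% in resistant tumors.

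**Figure D2:**
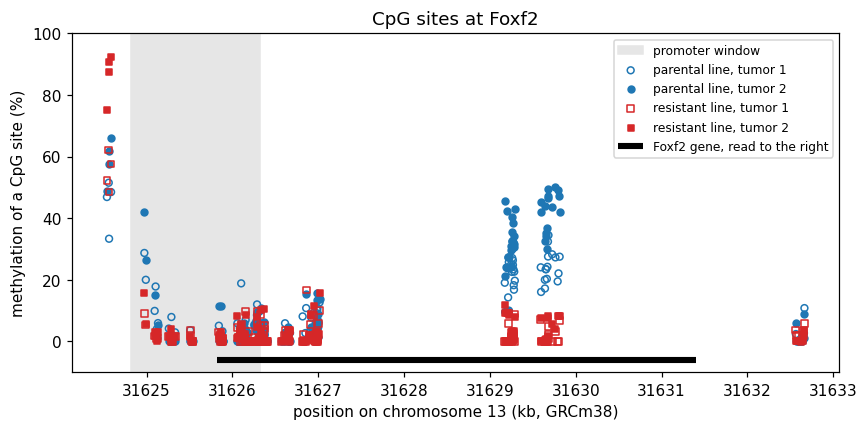
Methylation (%) of single CpG sites along Foxf2 on chromosome 13 (kb, GRCm38), with circles for parental and squares for resistant tumors, open for tumor 1 and filled for tumor 2. The 38 intron sites average 21.7% and 36.4% in parental tumors and 1.53% and 4.08% in resistant tumors, and the shaded promoter window averages 3.97% and 3.31%, then 1.71% and 1.76%, with parental sites of up to 42.1% at its upstream end.

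Its neighbours on chromosome 13 overlapped between the lines in the regions measured. Foxq1, 69682 bp from Foxf2 by gene start, had 9.04% and 14.4% against 9.81% and 12.1% in its gene body, which was not called, and the Foxc1 promoter had 4.38% and 5.89% against 4.61% and 4.43% and was called lower. The Foxc1 flank was called higher, with 35.5% and 54.5% against 42.1% and 70.2% (edgeR adjusted p 0.555). The Foxc1 body was called lower with a mean 1.08 points higher, at 32.7% and 51.8% against 36.3% and 50.4% (edgeR adjusted p 0.934). Other bodies with wide differences did not pass edgeR. Gata1, the erythroid factor on chromosome X, had 72.0% and 80.5% against 59.5% and 45.8% (edgeR adjusted p 0.170). Sox5, a cartilage factor, had 75.9% and 73.3% against 68.4% and 56.5% over 180 sites (edgeR adjusted p 0.175). Sox1, of neural progenitors, had 21.7% and 49.7% against 38.1% and 67.8% and overlapped between lines.

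Flanks were sites from 5000 bp upstream of the 5′-most TSS used up to the promoter, outside every promoter window. At genes that start upstream of that TSS, such as Gata1 and Gata4, flank and gene body share sites. Of 41 factors with such sites, 21 were called lower (52.4% of all flanks) and 11 higher (7.54%) by the likelihood ratio test. The lines did not overlap at 16 lower (44.1%) and 2 higher (5.78%). edgeR called 0 (0.268% of all flanks), with 5 under 0.05 unadjusted (16.5%), and limma called 0, with 2 (16.1%). The Sox2 flank, beside the pluripotency gene, had 35.7% and 61.4% against 58.5% and 85.6% over 10 sites, and that of Lyl1, a blood factor, had 34% and 30.3% against 18.7% and 16.8% over 9. The Sox2 flank overlapped between the lines. The Sox2 promoter was called lower and the Lyl1 promoter higher, against the calls of their flanks. Of 36 factors with promoter and flank measured, 9 were called higher in the promoter and lower in the flank (4.91% of all such genes). The reverse held at 5 (2.92%), while 5 were lower in both (17.3%) and 4 higher in both (2.03%).

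Related genes are given for comparison, to be read against the 29.7% of all promoters called lower and the 8.79% called higher. Of 39 measured other members of the same families, 14 were called lower and 6 higher. The Notch target Hey2, among 13 bHLH partners and inhibitors of which 3 were called lower and 3 higher, had 5.84% and 8.26% against 14.3% and 25.4% (edgeR adjusted p 0.502). 1 of those 3 lower calls was Hes5, another Notch target, whose mean was 1.37 points higher. Among the other family members, Myog (2 sites), Foxi2 and Foxo4 (7 sites) were lower by over 10 points and Mesp1 higher by 10.1. Foxi2 (29.2% and 47.7% against 21.8% and 31.0%) and Mesp1 (20.2% and 30.0% against 26.7% and 43.7%) overlapped between the lines. edgeR and limma called 0 of the 39 other members, with 3 under 0.05 unadjusted by each. They also called 0 of the 13 partners and inhibitors, with 2 under 0.05 unadjusted by edgeR and 1 by limma. Of 36 Hox genes, 16 were lower and 14 higher, with 0 called by edgeR, 2 under 0.05 unadjusted (8.79% of all promoters), and 0 called by limma, 1 under 0.05 unadjusted (10.2%). Promoters of 17 Polycomb genes were low in each tumor, with means of 1.36% to 1.43%, and 2 were called lower and 1 higher.

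Cell type markers were read by methylation, first at their promoters, few of which had usable sites. Over all promoters 29.7% were called lower and 8.79% higher by the likelihood ratio test. edgeR and limma called 0 of the marker promoters. Unadjusted p was under 0.05 at 1 leukocyte promoter by each (8.79% and 10.2% of all promoters). Of 15 leukocyte genes 3 were measured, 2 of them called lower, with means of 63.6% and 80.8% against 51.3% and 46.3%. Adgre1, a macrophage marker, had 65.9% and 78.3% against 36.2% and 9.23% at 1 site, and the T cell gene Cd3e had 81.1% and 75.8% against 81.5% and 46.6% at 2 sites. Of 6 endothelial genes 3 were measured (1 lower, 1 higher, the mean 43.4% and 58.4% against 30.6% and 59.2%), of which Tie1 was lower, at 58.5% and 89.1% against 46.2% and 75.9% at 1 site. Of 6 fibroblast genes 4 were measured (1 lower, 1 higher, 38.1% and 44.8% against 34.8% and 42.4%), of 6 epithelial genes 5 (3 lower, 13.7% and 10.1% against 11.3% and 6.75%), and of 3 lung genes 1 (Nkx2-1, higher).

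More markers had sites in their gene bodies, which were added to the account after the values were seen. All 6 endothelial bodies were called lower, with means of 75.8% and 70.6% against 64.9% and 54.4%. Of 9 leukocyte bodies 6 were lower and 2 higher, with means of 68.0% and 64.5% against 64.9% and 56.4%. All 5 measured fibroblast bodies were lower, with means of 58.2% and 59.6% against 55.1% and 47.6%. Of 6 epithelial bodies 4 were lower, and of 3 lung bodies 1 was higher. Over all gene bodies 60.8% were called lower and 6.6% higher, and the means were 68.0% and 68.2% against 64.3% and 60.02%. edgeR and limma called 0 of these marker bodies. Unadjusted p was under 0.05 at 5 leukocyte, 2 endothelial and 1 fibroblast bodies by edgeR (19.4% of all gene bodies), and at 3 leukocyte and 1 epithelial bodies by limma (16.6%). All 3 measured leukocyte flanks were lower, with means of 75.1% and 73.7% against 57.7% and 42.9%. Of 3 fibroblast flanks 1 was lower and 1 higher, of 3 epithelial flanks 2 were lower, and the 1 endothelial flank was lower. Over all flanks 52.4% were lower and 7.54% higher. edgeR and limma called 0 of these marker flanks. Unadjusted p was under 0.05 at 1 leukocyte and 1 epithelial flank by edgeR (16.5% of all flanks), and at 1 leukocyte flank by limma (16.1%). The part of these cells in the differences above was not tested.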

How the data were processed

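RRBS was done on 4 anti-PD1-treated tumors, 2 per line, grouped by the sample labels. The authors trimmed reads with Trim Galore 0.4.1 and cutadapt 1.9.1, mapped them to mm10 with Bismark and Bowtie 1.1.2, and deposited per tumor and strand the read count (coverage) of each CpG with its percent methylated. Methylated reads were recomputed from both. A site was used where every tumor had 20 reads or more (1081201 sites), and each was checked to be a CpG of GRCm38. At that depth 1 site is coarse, so levels are means over sites. TSS came from GENCODE.

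Likelihood ratio tests took p no lower than 2.2e-16. Summed methylated and unmethylated reads were tested with edgeR 4.0.16 (quasi-likelihood) and limma 3.58.1 under R 4.3.3, adjusted by Benjamini-Hochberg. Python 3.11.15 was used. Tests were also run on simulated reads, of which no result is given here.

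Members and lists were chosen with earlier results of these data known. Factors were described in full if called with at least 5 sites, at least 5 points and no overlap, or if among the 2 highest of a family. Related genes were named if called at 10 points or more. Hes5, whose score and mean differed in sign, and Nkx2-1, the 1 lung gene measured, were named besides. Alternatives were coverage minima of 10 and 50, merged strands, the 5′-most TSS, other tests, replicate blocks and each tumor left out.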

Additional observations from a re-analysis of the deposited data

How the results depend on the processing

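With a coverage minimum of 10 or 50, merged strands or the 5′-most TSS alone, the direction changed for the Fox mean difference (−0.375 at 10 and −0.00507 with the 5′-most TSS), and Gata2 lost its call at 50 (0.946 points). Hand2 gave no value at 50. Sizes moved more. The mean difference of 0.792 was 0.159 at 10. The bHLH mean of 1.75 was 0.241 at 10, 0.580 at 50 and 3.16 with each site counted once. The Gata mean of −0.939 was −0.396 with the 5′-most TSS and −0.443 with each site counted once. The Sox mean of 0.951 was 0.60 with pooled reads. The Fox mean of 0.00790 was 0.546 at 50, 0.267 with merged strands, 0.393 with each site counted once and 0.225 with pooled reads. Sox3 was 5.12 at 50, Gata2 2.96 with the 5′-most TSS, Foxi1 −19.2 at 10, Sox10 −10.6 with merged strands and Foxe3 −10.6 at 50. The cause was not tested.

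Tests that use the spread between tumors gave fewer calls. Against 20 factors lower and 20 higher, an F test scaled by that spread gave 8 and 3 (8.16% and 1.5% of all promoters), edgeR 0 and 0, and limma 0 and 0. edgeR called 1 gene body and 0 flanks, against 42 and 32 by the likelihood ratio test. The 10 factors described in full were all uncalled by edgeR without a block.

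Leaving out 1 tumor gave 9 to 35 factors lower and 1 to 29 higher. The mean difference ran from −4.59 to 6.17 points, the Sox mean from −3.55 to 5.46, the Fox mean from −4.01 to 4.02, the Gata mean from −2.70 to 0.825 and the bHLH mean from −6.61 to 10.1. Sox3 ran from −7.30 to 13.9, Foxe1 from −0.130 to 27.7, Gata2 from −1.04 to 3.46, Twist1 from −6.28 to 26.5 and Hand2 from −26.5 to 10.2. In edgeR fits with a tumor left out, chosen after seeing the data, 0 to 3 factors were called in the gene body and 0 in the promoter, where 0 to 34 of all gene bodies and 0 to 21 of all promoters were.

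Tumors of both lines carry the numbers 1 and 2 but come from different mice, and the numbers are not taken to pair them. Deviations of tumors with the same number from their line means had a Pearson r of 0.663 across all 20135 promoters and 0.781 across the 50, where promoters are not independent. With the replicate block, edgeR called 10 factors lower (9.87% of all promoters) and 8 higher (2.27%), 14 in the gene body (23.9% of all) and 11 in the flank (18.3% of all), and a Mantel-Haenszel test called 18 lower (29.2%) and 19 higher (8.31%). Of the 10 factors described in full, edgeR with this block called 6, namely Sox10 (adjusted p 0.00696), Foxi1 (0.0187), Foxe3 (5.76e-07), Foxe1 (0.00446), Gata5 (0.00861) and Twist1 (0.00622). Within this replicate block, tumors numbered 1 differed by 1.97 points over all factors, 0.831 for Sox, 1.41 for Fox, −0.211 for Gata and 4.01 for bHLH, and tumors numbered 2 by −0.384, 1.07, −1.39, −1.67 and −0.503. A coverage minimum of 50 gave 19 factors lower (28.7% of all promoters) and 17 higher (9.25%), and what more tumors would call was not tested.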

Other observations

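Promoter and gene body of a factor were not always called in 1 direction. Of 47 factors with both measured, 8 were called lower in both (19.3% of the 12538 genes with both measured) and 11 higher in both (1.64%) by the likelihood ratio test, while 5 were called lower in the promoter and higher in the body (Sox2, Sox7, Foxd2, Gata5 and Neurog2; 1.68%) and 4 the reverse (Sox8, Sox18, Neurod2 and Twist2; 6%). A call takes the sign of the combined score. By mean level Sox7 was higher in both, by 1.34 points in the promoter and 10.0 in the body, and Foxc1, called lower in both, had a body mean 1.08 points higher. These names were chosen after the values were seen. At Foxd2 the promoter had 2.15% and 2.67% in parental tumors and 1.34% and 1.91% in resistant tumors, and the body had 33.8% and 59.6%, then 44.8% and 74.2%, with an edgeR adjusted p of 0.453 for the body.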
